A study of Mus musculus with 9 samples.

Results

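The genes described here encode the proteins of the cytosolic ribosome. They were chosen by name: a symbol made of Rpl or Rps, a number and at most a final a or x, or one of Rpsa, Rplp0, Rplp1 and Rplp2. The rule found 76 genes, 46 of the large and 30 of the small subunit, among 49326 named gene identifiers. No measured value entered the choice. All 76 passed the filter on low counts.

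The ribosome is built from a small subunit, which reads the mRNA, and a large subunit, which joins the amino acids. Most of the proteins are present once per ribosome, so cells make them in near balanced amounts from many unlinked genes. Their mRNAs are among the most abundant of any growing cell. They typically begin with a run of pyrimidines, the 5′ terminal oligopyrimidine (TOP) tract, through which growth signals govern their translation.

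The series profiled polyA+ RNA of mouse embryonic stem cells, kept in medium with LIF (leukemia inhibitory factor) and 15% serum of fetal calves, and of embryoid bodies, the differentiating aggregates that they form in hanging drops. The libraries were Hnrnpll knockout at day 0, day 4 and day 8 (2 libraries a day, from lines G6 and H8) and wild type at the same days (1 library a day). Hnrnpll encodes an RNA-binding protein that regulates alternative splicing in lymphocytes, and the series asks what its depletion does to gene expression in embryoid body formation. How the lines were made is not given in the sources used here, and with 1 wild-type line, genotype and line cannot be told apart.

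Total counts per library ran from 54218051 to 184952442. Hnrnpll itself was at 54.9 TPM in G6, 24.5 in H8 and 77.1 in wild type at day 0, at 61.2, 38.6 and 101 TPM at day 4, and at 56.5, 43.5 and 112 TPM at day 8, so its polyadenylated RNA was lower than in wild type in every knockout library but still present. TPM, the level that the authors deposited, scales the reads of a gene by its length and by the library. All 6 pluripotency markers (such as Pou5f1 and Nanog) reached 1 TPM in every library; their summed level at day 0 was 4207 and 4616 TPM in knockout and 2641 TPM in wild type. The day 0 knockout libraries stood apart. They were the shallowest, and 43.5% and 42.6% of their low counts fell on multiples of 4, against 30.5% to 33.2% elsewhere. Their median level of 2051 processed pseudogenes was 0.295 and 0.325 CPM (counts scaled to the size of the library), against 0.701 to 1.06 in the other 7 libraries. Across the 76 members, these libraries correlated with the other 7 at Pearson's r of 0.901 to 0.948 (log2 TPM, 14 pairs), while the other 7 correlated with each other at 0.967 to 0.994 (21 pairs).

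The ribosomal protein genes took a large and stable share of the transcripts in knockout cells, and a share that varied between days in wild type. They made up 13.5% of all TPM in G6 and 14.3% in H8 at day 0, against 11.8% in wild type. At day 4 the share was 14.1% in G6 and 15.0% in H8, against 15.1% in wild type. At day 8 it was 13.7% in G6 and 14.0% in H8, against 10.4% in wild type. The 3 wild-type values therefore spanned a wider range than all 6 knockout values. In read counts, where long transcripts weigh more, the share was 6.11% and 6.32% in knockout and 4.13% in wild type at day 8. In bulk RNA, fewer cells with high ribosomal protein mRNA and less of that mRNA per cell cannot be told apart.

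**Figure D1:**
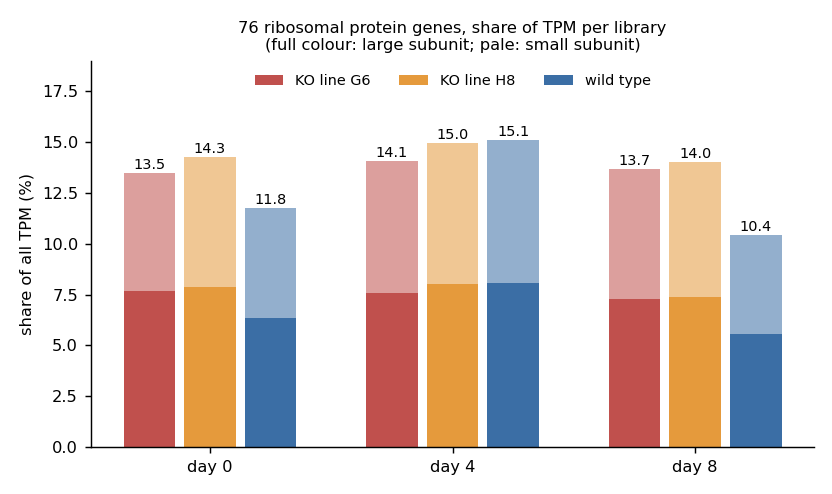
Share of all TPM (vertical axis, percent) taken by the 76 ribosomal protein genes in each of the 9 libraries, grouped by day, with the large subunit in full colour and the small subunit in pale colour. The knockout bars lie between 13.5% and 15.0% on every day, while the wild-type bars stand at 11.8%, 15.1% and 10.4%.

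Levels differed widely among members. Averaged over the 9 libraries, Rplp1, a protein of the acidic stalk that recruits elongation factors, was highest at 4557 TPM. Rpl8, Rpl32, Rps6 and Rps26 followed. Rpl29 was lowest at 53.0 TPM, ahead of Rpl34, Rpl21, Rpl22 and Rpl18. The median member stood at 1556 TPM, and 62 of 76 averaged at least 1000 TPM. The order of levels depends on the length that the authors' quantification assigned to each gene, and 58 members have pseudogenes named after them, 277 in all, which can take reads from the parent gene. Stability differed too: the coefficient of variation over the 9 libraries had a median of 15.5% and ran from 5.63% for Rpl21 to 51.0% for Rpl27.

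Day 8 held the broadest difference. All 76 members had a higher fitted level in knockout than in wild type, where 53.5% of all tested genes did, with a median log2 difference of 0.50, a 1.41-fold median. With other scaling the number above 0 was 74 (RLE size factors) or stayed at 76, and it was 72 on the log2(TPM + 1) scale. Of the 76, 11 passed the test and all of these rose; the background of higher calls over all 24794 genes was 5.01%. No member passed as lower (background 4.86%). The other 65 did not pass at an adjusted p under 0.05, although 50 of the 76 had an unadjusted p under 0.05, all of them higher (background 15.7%). The median over all tested genes was 0.08, and upper quartile scaling moved that median by 0.15. The members' median lay 0.42 above it. A scaling shifts all genes by about the same amount, so this distance cannot change with it and is no check on the scaling. In deposited TPM both knockout lines lay above wild type for 70 members (background 40.1%), both lay below for 3 (background 44.4%), and the lines fell on either side for 3.

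Of the small-subunit proteins, Rps28, which sits near the mRNA exit site and is mutated in some patients with Diamond-Blackfan anaemia in humans, changed most. It was at 1457 TPM in G6 and 1495 TPM in H8, against 760 TPM in wild type at day 8. The log2 difference was 1.08 ± 0.16 (SE; 2.11-fold), with an adjusted p of 0.0233 in edgeR's quasi-likelihood test. The knockout lines lay close together and far above the wild-type library. Rps12, known in Drosophila for its part in cell competition, had 2430 and 2624 TPM in knockout and 1534 TPM in wild type (log2 difference 0.84 ± 0.17, adjusted p = 0.0389). Rps15, whose tail reaches towards the decoding centre, had 3164 and 3268 TPM in knockout and 1997 TPM in wild type (0.81 ± 0.18, adjusted p = 0.0464). Rpsa, a protein whose human gene is mutated in congenital asplenia, had 1939 and 1853 TPM in knockout and 1187 TPM in wild type (0.81 ± 0.16, adjusted p = 0.0341). For each of these, neither knockout line overlapped the wild-type value. The test takes its spread from the knockout lines, so agreement between the lines is part of what it selects. Rps29, a zinc-binding protein of the small-subunit head, was at 3127 and 3297 TPM in knockout and 2063 TPM in wild type (0.76 ± 0.16, adjusted p = 0.0407).

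Of the large-subunit proteins, Rpl36 rose most, with 2584 TPM in G6 and 2536 TPM in H8, against 1397 TPM in wild type. It was 1.99-fold higher in knockout, with an SE of 0.16 on the log2 scale and an adjusted p of 0.0260. Rplp2, the stalk partner of Rplp1, had 1802 and 1722 TPM in knockout and 1071 TPM in wild type (0.83 ± 0.17, adjusted p = 0.0374). Its partners gave values that did not pass: the log2 difference was 0.82 for Rplp1 (adjusted p = 0.0553) and 0.40 for Rplp0, the stalk base (adjusted p = 0.144). With the knockout line as a term, Rplp1 passed (adjusted p = 0.0374). Rpl28, which has no counterpart in budding yeast, had 925 and 941 TPM in knockout and 601 TPM in wild type (0.79 ± 0.14, adjusted p = 0.0304). Rpl31, which lies at the rim of the peptide exit, had 1082 and 1219 TPM in knockout and 719 TPM in wild type (0.76 ± 0.15, adjusted p = 0.0359). For each of those that passed, both knockout lines lay above the wild-type library, as they did for 40.1% of all genes in TPM. The test favours members on which the lines agree, so this follows largely from the selection. Rpl27a, whose mouse mutant is known as sooty foot ataxia, and Rpl4, whose long loop lines the exit tunnel, passed most narrowly. They had 1577 and 1425 TPM (Rpl27a) and 3421 and 3443 TPM (Rpl4) in knockout, against 1021 and 2499 TPM in wild type, with adjusted p of 0.0482 and 0.0490.

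**Figure D2:**
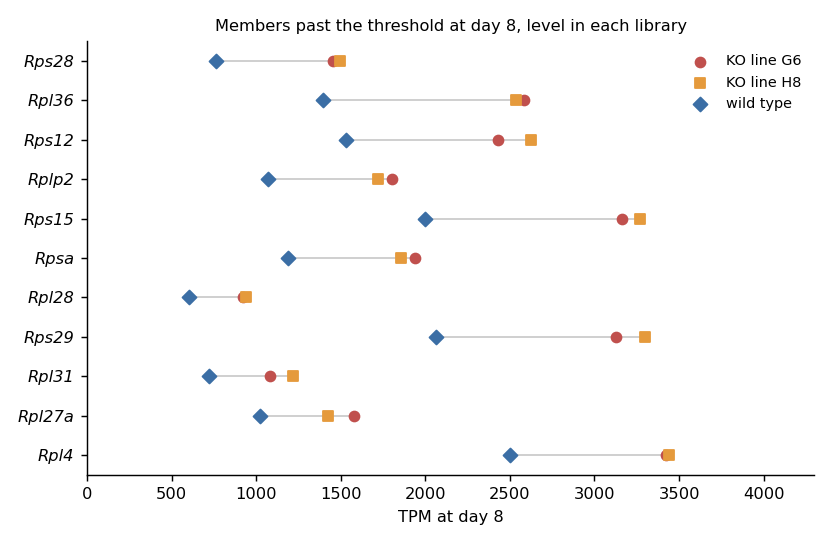
TPM at day 8 (horizontal axis, from 0) of the 11 members past the threshold, one line per gene, with circles for knockout line G6, squares for line H8 and diamonds for wild type. In all 11 genes both knockout lines lie to the right of wild type; Rps28, at the top, has 1457 and 1495 TPM in knockout and 760 TPM in wild type.

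At the other end of the day 8 ranking stood members that hardly differed. Rpl10, an X-linked protein that reaches the peptidyl transferase centre and completes large-subunit maturation, was at 964 and 989 TPM in knockout and 1073 TPM in wild type, with a log2 difference of 0.00 ± 0.17. Rpl9 followed at 0.01 ± 0.16 and Rpl24, mutated in the Belly spot and tail mouse, at 0.04 ± 0.15. Rps4x, also X-linked, stood at 0.08 ± 0.15. The 4 X-linked members (Rpl10, Rps4x, Rpl39 and Rpl36a) had a median of 0.13, the 72 autosomal ones a median of 0.50. For all X-linked genes with a mean of at least 5 CPM the median was below 0 on each day, at -0.45, -0.13 and -0.26 on days 0, 4 and 8, whereas autosomal medians lay between -0.19 and 0.14 at day 8. Rpl5 and Rpl11, which together bind Mdm2 when ribosome assembly fails and so stabilise p53, had differences of 0.20 (adjusted p = 0.395) and 0.51 (adjusted p = 0.0864). Rps19, the gene most often mutated in Diamond-Blackfan anaemia in humans, had 0.31 (adjusted p = 0.333). Rps7 had 0.19 and Rps26 had 0.63, and neither passed.

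Marker genes of cell types also differed at day 8. The 6 pluripotency markers summed to 2681 and 2696 TPM in knockout and 435 TPM in wild type. The 2 markers of primitive blood (Hbb-bh1 and Hba-x) summed to 0 TPM in G6 and 2.72 TPM in H8, against 501 TPM in wild type. The 4 cardiac markers summed to 6.19 and 8.63 TPM in knockout and 214 TPM in wild type. The 3 of yolk sac endoderm summed to 14.4 and 32.2 TPM in knockout and 224 TPM in wild type. The 5 of fibroblasts and feeder cells summed to 6.27 and 29.6 TPM in knockout and 455 TPM in wild type. The 4 markers of primitive streak and mesoderm, at 17.6 and 24.7 TPM in knockout and 22.7 TPM in wild type, overlapped between the groups on that day. What part of the ribosomal protein difference goes with these cell types was not tested. The test itself rests on few libraries: with either knockout library of day 4 or of day 8 left out, 0 of 76 members passed (28 to 37 had an unadjusted p under 0.05), and at most 562 of all genes did, against 2446 with all libraries. With the knockout line as a term in the model, 20 passed, including all 11.

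The sequences around the transcription starts show what members that rose and members that did not have in common. RefSeq (GRCm38.p6, the assembly of mm10) gave a promoter for 56 of the 76 members, and the 100 bases from 70 before to 30 after the annotated start are shown for the 9 with an entry among the 11 that rose at day 8, the 3 with the lowest day 8 difference (Rpl10, Rpl9 and Rpl24), and Rpl27, which had the largest difference at day 0. Capitals mark every match, on either strand, to CGGAAG (the core bound by ETS factors), CTTTCC (a pyrimidine run like that of TOP starts) or TATAAA (the TATA box); matches of the first and the other motifs can share letters at their ends.
Rps28 (chr17:33824533-33824632, minus strand): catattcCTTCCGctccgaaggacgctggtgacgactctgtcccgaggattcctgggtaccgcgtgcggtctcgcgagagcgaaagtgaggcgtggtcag
Rps12 (chr10:23787180-23787279, minus strand): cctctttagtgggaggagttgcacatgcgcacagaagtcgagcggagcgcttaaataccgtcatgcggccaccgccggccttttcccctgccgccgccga
Rplp2 (chr7:141447581-141447680, plus strand): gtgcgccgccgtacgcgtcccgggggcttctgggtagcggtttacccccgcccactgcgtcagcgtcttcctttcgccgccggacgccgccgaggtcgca
Rps15 (chr10:80292361-80292460, plus strand): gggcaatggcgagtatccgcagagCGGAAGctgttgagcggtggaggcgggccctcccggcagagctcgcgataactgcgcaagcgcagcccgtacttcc
Rpsa (chr9:120127696-120127795, plus strand): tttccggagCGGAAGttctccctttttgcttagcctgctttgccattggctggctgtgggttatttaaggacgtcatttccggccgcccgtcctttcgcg
Rpl28 (chr7:4792895-4792994, plus strand): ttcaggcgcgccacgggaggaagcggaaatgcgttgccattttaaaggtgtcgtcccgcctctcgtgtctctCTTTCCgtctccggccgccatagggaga
Rpl31 (chr1:39367781-39367880, plus strand): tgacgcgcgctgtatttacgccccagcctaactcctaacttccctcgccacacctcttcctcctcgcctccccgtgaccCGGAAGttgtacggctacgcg
Rpl27a (chr7:109519125-109519224, plus strand): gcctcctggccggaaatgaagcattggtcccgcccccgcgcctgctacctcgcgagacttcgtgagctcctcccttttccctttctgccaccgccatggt
Rpl4 (chr9:64173317-64173416, plus strand): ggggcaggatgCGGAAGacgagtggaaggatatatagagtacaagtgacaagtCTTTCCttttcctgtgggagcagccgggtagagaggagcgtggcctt
Rpl10 (chrX:74270746-74270845, plus strand): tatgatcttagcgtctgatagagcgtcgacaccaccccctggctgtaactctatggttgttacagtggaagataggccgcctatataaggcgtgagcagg
Rpl9 (chr5:65391402-65391501, minus strand): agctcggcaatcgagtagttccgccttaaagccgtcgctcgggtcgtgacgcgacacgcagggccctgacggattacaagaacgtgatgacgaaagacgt
Rpl24 (chr16:55966205-55966304, plus strand): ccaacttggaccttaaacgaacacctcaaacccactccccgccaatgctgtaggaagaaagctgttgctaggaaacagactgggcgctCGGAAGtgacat
Rpl27 (chr11:101442175-101442274, plus strand): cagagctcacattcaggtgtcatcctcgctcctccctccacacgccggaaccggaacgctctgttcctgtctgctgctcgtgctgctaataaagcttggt
Matches to CGGAAG stood in 6 of these windows and fell on both sides of the day 8 ranking, in Rps28 as in Rpl24. In the full promoter of 300 bases, CGGAAG or its reverse complement was found in 39 of 56 members (69.6%), against 17.2% of 27025 promoters of all genes. It stood in 8 of the 9 that rose at day 8 and in 31 of the other 47. The median day 8 difference was 0.50 for the 39 members with the motif and 0.46 for the 17 without it. CTTTCC was found in 27 members (48.2%, against 26.3% of all promoters), in 5 of the 9 that rose and in 22 of the other 47. TATAAA was found in 5 members (8.93%, against 14.2%). Counted on the strand of the gene alone, TATAAA was in 8.93% of members and 8.88% of all promoters. CTTTCC on that strand was in 37.5% of members and 14.0% of all promoters. These are letter matches only, and annotated starts can lie away from the start used in these cells.

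At day 4 the families were close, and the small difference ran the other way. The median log2 difference was -0.16, with 62 of 76 members below 0 (54 to 64 under the other scalings), while 54.2% of all tested genes lay above 0 and their median was 0.07. No member passed, higher or lower; over all genes the backgrounds were 0.00403% higher and 0.00403% lower, so edgeR called 2 genes in all on that day, and 1 member (lower) had an unadjusted p under 0.05 (background 4.71%). DESeq2 called no member either, although it called 1231 of all genes (821 higher, 410 lower). Among the lowest values were those of Rps14 (-0.48) and Rpl39 (-0.42), and the highest belonged to Rps6 (0.28), Rpl30 (0.23) and Rpl8 (0.19). Rps14, whose loss underlies the anaemia of the 5q- syndrome in humans, had 1899 and 2128 TPM in knockout and 2685 TPM in wild type. On the same day the 4 markers of primitive streak and mesoderm summed to 51.7 and 118 TPM in knockout and 1450 TPM in wild type; in G6 2 of the 4 reached 1 TPM and Mesp1 was at 0, while all 4 did so in H8 and in wild type. Their part in the day 4 values was not tested.

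At day 0, in the stem cell libraries, single members differed widely, with values on both sides of 0. The 5 markers of fibroblasts and feeder cells summed to 105 TPM in G6, 57.0 TPM in H8 and 146 TPM in wild type on that day. Their part in the day 0 values was not tested. Of the 76, 7 rose (9.21%, against a background of 1.11%), and none passed as lower (background 4.33%). The median log2 difference was 0.23, the range -0.96 to 1.49, and 52 of 76 lay above 0 (51 to 53 under the other scalings; 47.7% of all tested genes did). Rpl27, mutated in rare Diamond-Blackfan anaemia families in humans, was at 2927 TPM in G6 and 2405 TPM in H8, against 943 TPM in wild type. Its difference of 1.49 ± 0.17 (SE; adjusted p = 0.0110) was the largest of any member on any day. Elsewhere Rpl27 lay between 765 and 1319 TPM, so the day 0 knockout libraries were the exceptions.

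The other 6 at day 0 were Rpl18, Rps28, Rpl31, Rps14, Rpl28 and Rpl13a. Rpl18 had 684 and 598 TPM in knockout and 325 TPM in wild type (log2 difference 1.14 ± 0.17, adjusted p = 0.0228). Rps28 had 1898 and 1947 TPM in knockout and 881 TPM in wild type (1.13 ± 0.16, adjusted p = 0.0203). Rpl31 had 1551 and 1513 TPM in knockout and 718 TPM in wild type (1.05 ± 0.15, adjusted p = 0.0202). Rps28, Rpl31 and Rpl28 were thus called at both day 0 and day 8. Rps14 had 3632 and 3239 TPM in knockout and 1703 TPM in wild type (1.99-fold, adjusted p = 0.0323). Rpl28 had 1316 and 1274 TPM in knockout and 707 TPM in wild type, and Rpl13a, which outside the ribosome silences inflammatory mRNAs in humans, had 2978 and 3095 TPM in knockout and 1771 TPM in wild type (adjusted p = 0.0300 and 0.0440). For all 7, the knockout lines differed from each other far less than from wild type. A test that takes its spread from those lines favours such members.

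Members at the low end of day 0 did not pass in the model of group means. Rpl34 had 89.4 and 69.1 TPM in knockout and 181 TPM in wild type (log2 difference -0.96, adjusted p = 0.0793). Rps15a had 246 and 296 TPM in knockout and 606 TPM in wild type (-0.78, adjusted p = 0.0883), and Rpl30 had 273 and 381 TPM in knockout and 514 TPM in wild type (-0.61, adjusted p = 0.285). Other fits called some of them lower: with the knockout line as a term, 9 members rose and 1, Rps15a, fell (adjusted p = 0.0373), and DESeq2 and both TPM fits called Rps15a and Rpl34 lower (adjusted p of 0.0221 to 0.0427). Of 176 tested pseudogenes named after ribosomal protein genes, 75 fell and none rose in knockout at day 0 (backgrounds 4.33% and 1.11%), with a median of -1.91. None passed at day 4 (median -0.23), when only 2 of all genes did. At day 8, 10 of the 176 rose (median 0.58), near the background of 5.01%. Counts of these pseudogenes came to 9.40% and 10.5% of the members' own counts in the day 0 knockout libraries and to 12.9% to 13.9% in the other 7. When each pseudogene's counts were added to its parent, 5 of the 7 day 0 calls were kept, Rpl13a and Rpl31 were not, and at day 8 all but Rpl4 of the 11 were kept. With 1 knockout library of day 4 or day 8 left out, 1 member (Rpl27) still passed at day 0. The part of depth or of read assignment in the day 0 differences was not tested.

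**Figure D3:**
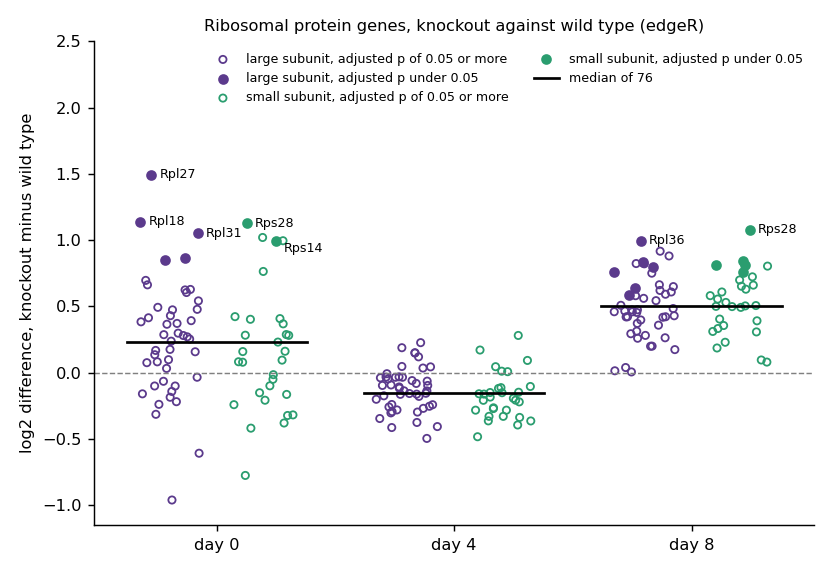
Fitted log2 difference, knockout minus wild type (vertical axis), of each of the 76 members at day 0, day 4 and day 8; purple marks the large and green the small subunit, filled points have an adjusted p under 0.05 and black bars are medians. The medians are 0.23, -0.16 and 0.50, the day 0 points spread from -0.96 to 1.49, and all day 8 points lie above 0.

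Over all 3 days in 1 model, no member passed (backgrounds 0.387% higher and 0.597% lower), although 8 had an unadjusted p under 0.05, all higher (background 9.56%); DESeq2 called no member and 3252 of all genes. The median was 0.20, with 64 of 76 above 0 (48.9% of all tested genes); without the wild-type library of day 8 the median was 0.02, with 39 of 76 above 0, and without that of day 4 it was 0.35 and 3 members passed. Rps28 (0.64, adjusted p = 0.194), Rps6 (0.58, adjusted p = 0.185) and Rpl31 (0.55, adjusted p = 0.181) were highest. Rps6 is the substrate of S6 kinase.

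Along the knockout course, members passed between day 0 and day 4 at about the share of all genes. None passed after, when few genes of any kind did. Comparing knockout at day 4 with knockout at day 0, 6 members rose (7.89%, background 9.56%) and 5 fell (background 5.16%). The median was 0.06, the same to 2 decimals as that of all genes. The split was 3 higher and 6 lower with RLE size factors, 13 and 5 with total count scaling, and 5 and 5 with upper quartile scaling. Without G6 or H8 at day 4, 0 or 1 of the 11 passed, and without G6 or H8 at day 8, 5 or 4 did. Those that rose were Rpl34, Rpl29, Rps24, Rps10, Rps29 and Rpl19. Rpl29, a small protein of the large subunit, had 74.6 and 69.0 TPM at day 4 and 35.6 and 37.2 TPM at day 0 (log2 difference 1.02 ± 0.17, adjusted p = 0.0174). Rpl34 had 1.11 ± 0.21 (adjusted p = 0.0219), but with its pseudogene counts added the sign turned, to -0.38 (adjusted p = 0.129). Rps24 and Rps10, both mutated in Diamond-Blackfan anaemia in humans, had 0.60 (adjusted p = 0.0231) and 0.60 (adjusted p = 0.0393).

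Those that fell between day 0 and day 4 were Rpl27, Rpl18, Rps21, Rps14 and Rpl13a, of which 4 were also higher than wild type at day 0; both comparisons use the same day 0 knockout libraries. Rpl27 had 1112 and 1174 TPM at day 4 and 2927 and 2405 TPM at day 0 (-1.22 ± 0.13, adjusted p = 0.00473). Rps21 had 1201 and 1519 TPM at day 4 and 2305 and 2338 TPM at day 0 (-0.77 ± 0.17, adjusted p = 0.0371). From day 4 to day 8, no member passed in knockout (backgrounds 0.165% higher and 0.145% lower; 1 member, lower, had an unadjusted p under 0.05, against 6.38% of all genes, and DESeq2 called no member and 1518 of all genes). The median was -0.05 and the extremes were Rpl29 (-0.41) and Rpl39 (0.18).

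The wild-type course, 1 library a day and hence without a test, peaked at day 4. In TPM, 74 of 76 members were higher at day 4 than at day 0, where 45.5% of all genes were, with a median log2(TPM + 1) difference of 0.36. At day 8, 75 of 76 were lower than at day 4, against 42% of all genes, with a median of -0.55. The streak and mesoderm markers of wild type summed to 7.33, 1450 and 22.7 TPM on days 0, 4 and 8. For the next counts the share of all genes was not taken. In all, 73 members were highest at day 4 among the wild-type libraries. For 49 members the lowest of the 9 values was that of wild type at day 8. Rps28, for example, was at 881, 1437 and 760 TPM in wild type on days 0, 4 and 8. Rplp1 was at 3638, 4977 and 2633 TPM.

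**Figure D4:**
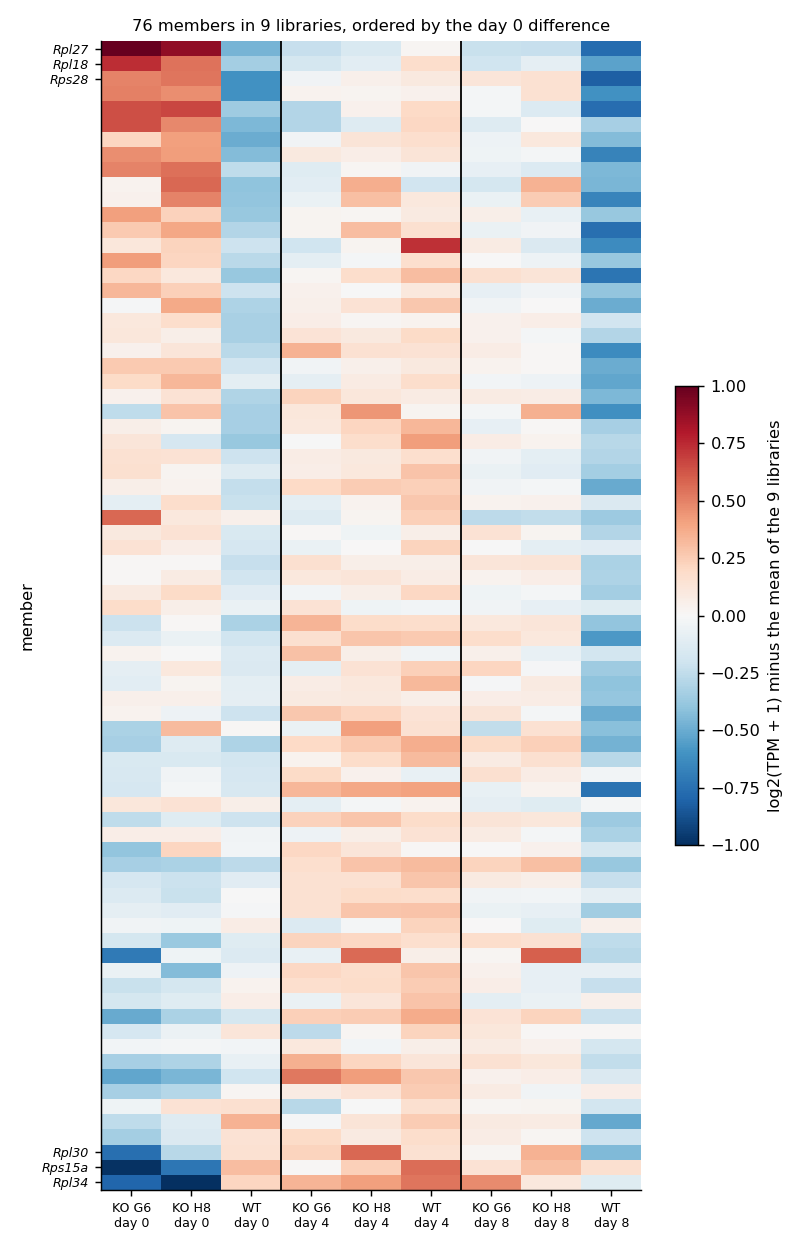
Level of each of the 76 members (rows, ordered by the day 0 difference, with 6 of them named) in the 9 libraries (columns, knockout lines left of wild type within each day), as log2(TPM + 1) minus that gene's mean over the libraries; red is above and blue below the mean. The day 8 wild-type column is blue in nearly all rows, and the 2 day 0 knockout columns are red at the top (Rpl27, Rpl18, Rps28) and blue at the bottom (Rpl34, Rps15a, Rpl30).

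Whether the knockout and wild-type difference itself changed between days was tested as an interaction. Between day 0 and day 4, 1 member passed: the difference of Rpl27 was lower by 1.79 ± 0.23 at day 4 than at day 0 (adjusted p = 0.0495; background of lower calls 0.0484%). None passed as higher (background 0.456%). With the knockout line as a term its adjusted p was 0.0635. Between day 4 and day 8, no member passed and no gene of all 24794 did (background 0%). All 76 values were nevertheless above 0, where 50.3% of all genes were, with a median of 0.64, and 48 had an unadjusted p under 0.05, against 8.09% of all genes in that direction. DESeq2 called 9 members as higher and, of all genes, 627 as higher and 839 as lower. Both interactions share the day 4 libraries.

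The lines G6 and H8 differed across the family on days 0 and 4, and most in a few members by position. The log2 CPM of H8 was above that of G6 for 61, 65 and 31 of the 76 members on days 0, 4 and 8. Of other genes with a mean of at least 5 CPM, off chromosomes 4 and 15, 46.8%, 48.6% and 46.1% were higher in H8. Of the 4 members on chromosome 15, Rpl8 had 5289, 5887 and 5548 TPM in H8 on days 0, 4 and 8 and 3640, 4677 and 4273 TPM in G6. Rpl30, Rpl37 and Rpl3, a protein near the peptidyl transferase centre, were also higher in H8 each day, by TPM ratios between 1.25 and 1.55. On chromosome 4, Rps6 had 4803, 4162 and 4115 TPM in H8 and 3310, 2993 and 2862 TPM in G6. The 6 members in these regions had a median log2 difference between the lines of 0.64, 0.44 and 0.34, the other 70 of 0.12, 0.12 and -0.03.

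Other genes of the same regions differed between the lines in the same direction. Over genes with a mean of at least 5 CPM, the median difference of H8 from G6 was 0.46, 0.32 and 0.30 on days 0, 4 and 8 on chromosome 15 and 0.46, 0.51 and 0.54 between 40 and 120 megabases of chromosome 4, limits set after the values were seen, while the medians of the other 18 chromosomes lay between -0.08 and 0.03. Rpl11, Rpl22 and Rps20, outside that stretch of chromosome 4, had TPM ratios of 0.88 to 1.21. DNA was not measured, so copy number was not tested. Where the lines differ, the SE is wide: Rpl8 and Rpl30 had day 8 differences from wild type of 0.92 ± 0.33 and 0.82 ± 0.33, and neither passed (adjusted p = 0.129 and 0.157), although in both lines they lay above wild type. With the knockout line as a term both passed (adjusted p = 0.0291 and 0.0380).

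**Figure D5:**
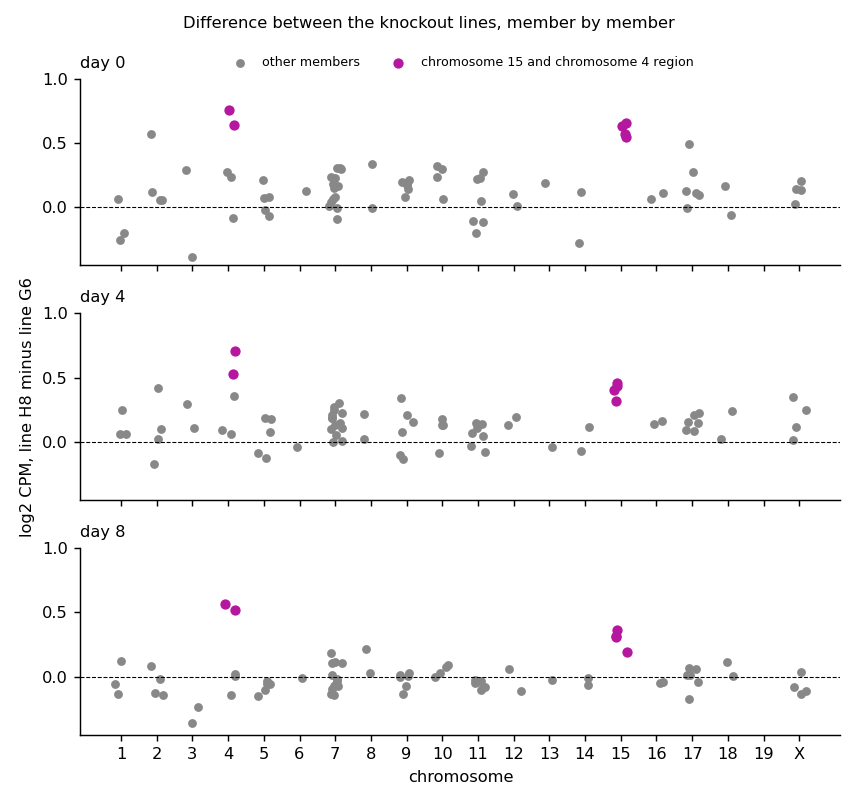
Difference in log2 CPM between knockout lines H8 and G6 (vertical axis) of the 76 members by chromosome (horizontal axis; points are spread sideways to be seen), on days 0, 4 and 8. The 6 members on chromosome 15 and in the chromosome 4 region, in magenta, lie above 0 on every day, between 0.19 and 0.76.

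Genes related to the ribosome gave mixed values; over all genes, 5.01% rose, 4.86% fell and 53.5% lay above 0 at day 8, and 1.11% rose and 4.33% fell at day 0. Of the subunit genes outside the name rule, Rack1, Fau and Rps3a1 did not pass at day 8. At day 0, Fau rose (log2 difference 0.79, adjusted p = 0.0494) and Rps3a1 fell (-0.71, adjusted p = 0.0436). Of 10 paralogs, Rpl3l, Rpl10l and Rps4l rose at day 8 (4.79, 3.24 and 1.19). Rpl3l was near the floor, at 2.03 and 3.19 TPM in knockout and 0.0990 TPM in wild type. Rpl10l, known from the testis, had 74.9 and 68.4 TPM in knockout and 8.22 TPM in wild type. Rps27rt rose at day 0 (1.56, adjusted p = 0.0229). Of 19 translation factors and related genes whose mRNAs start with a TOP tract, none passed at day 0, day 4 or day 8, and the day 8 median was 0.13 (1 had an unadjusted p under 0.05). Of 42 ribosome biogenesis genes, 1, Nhp2, rose at day 8 (1.01, adjusted p = 0.0425) and 40 lay above 0, with a median of 0.36. Of 78 mitochondrial ribosomal protein genes, 3 (Mrps24, Mrps18b and Mrpl42) rose at day 8, a share below that of all genes, 62 lay above 0 and the median was 0.25. Of 9 hosts of small nucleolar RNAs, 1, Snhg12, rose at day 8 and all 9 lay above 0, with a median of 0.60.

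Correlations of the differences with properties of the members were low to moderate. Across the 76 genes, which are not independent, the day 8 difference had a Pearson's r of 0.30 with GC content, -0.21 with transcript length, 0.22 with log2 mean TPM and 0.09 with the number of named pseudogenes. For the day 0 difference these were 0.23, -0.16, 0.21 and -0.08. By rank (Spearman), the correlation with transcript length was -0.19, 0.31 and -0.35 on days 0, 4 and 8. Large and small subunits gave like medians at day 8, 0.47 for 46 and 0.52 for 30 members. At day 0 the medians were 0.27 and 0.13.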

How the data were processed

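The authors deposited 2 tables per library, per the file headers: gene counts, which are whole numbers and not scaled, and TPM. The submitters' processing notes name HISAT2 2.0.5, StringTie 1.3.3b and mm10; options, annotation and use of strand are not given in the sources used here. In each library 259 count entries name no gene (0.0242% to 0.0398% of counts) and did not enter the analysis. GENCODE M21, the source of coordinates, held all 49326 named identifiers. Of the members, 45 overlap another annotated gene and 29 hold a small nucleolar RNA, so their counts are uncertain.

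A gene was tested where 2 or more libraries reached a CPM of 0.0791 (10 counts at the median depth), as 24794 did. Counts were scaled by TMM and tested two-sided with edgeR 4.0.16 (quasi-likelihood F test; R 4.3.3), with Benjamini-Hochberg adjustment over all tested genes and a threshold of 0.05. "Rose" and "fell" are used of genes past it, SE is the standard error of a log2 difference, and 8 comparisons were tested. One model had a mean for each of the 6 groups (3 residual degrees of freedom, all from the 2 knockout lines at each day), so the spread of wild type is taken from the knockout lines; knockout against wild type over all days used day plus genotype (5 residual degrees of freedom). Nothing in the labels says that lines were cultured separately at each day beyond their names, so p-values measure the spread between these libraries. The replicate numbers stand for the lines G6 and H8, present on all days, and so pair the samples; differences between the lines correlated between days at 0.201, 0.173 and 0.417 over 15736 genes.

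The script was tested on simulated counts. Alternatives were other scalings, no filter, DESeq2 1.42.0, limma-voom (limma 3.58.1), log2(TPM + 1) and log2(TPM + 0.1) with limma-trend, the replicate block, pseudogene counts added to their parents and each library left out; the fit without day 0 libraries was chosen after seeing the data. Members, lists and the naming rule were chosen with earlier results of these data known. The rule names the 5 members with the highest and the 5 with the lowest mean TPM, the 3 highest and 3 lowest in each comparison, those past the threshold, 22 members always reported, and up to 4 called genes per list. Rpl37, outside it, was named for its chromosome after its values were seen. Some genes that the rule covers are not reported here.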

Additional observations from a re-analysis of the deposited data

Results flagged for a closer look

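The Rpl27 difference between knockout and wild type was not the same on days 0 and 4: the interaction was -1.79 ± 0.23 (SE) on the log2 scale, with an adjusted p of 0.0495 in edgeR's quasi-likelihood test. In TPM, Rpl27 stood at 2927 and 2405 in knockout and 943 in wild type at day 0, and at 1112 and 1174 in knockout and 1319 in wild type at day 4. Both knockout lines were above wild type on the first of these days and below it on the second. Both genotypes contribute to the interaction: the knockout log2 change from day 0 to day 4 was -1.22, while wild type went from 943 to 1319 TPM. The day 0 knockout libraries were the shallowest of the 9. The sign of the interaction was the same under all 18 alternatives that could be fitted, with values from -1.89 to -1.70. Its adjusted p lay above 0.05 under 13 of them. What part depth has in it was not tested.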

How the results depend on the processing

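At day 8 the count of 11 members was 22 with upper quartile scaling, 20 with total count scaling, 22 with DESeq2, 26 with limma-voom, 3 with log2(TPM + 1), 6 with log2(TPM + 0.1), 20 with the replicate block, 23 without the day 0 libraries, and 0 to 23 with single libraries left out. At day 0 the 7 became 14 with DESeq2 and 1 to 7 with single libraries left out. Over all days the count was 0 to 3 with single libraries left out. For knockout at day 4 against day 0, the 11 became 18 with total count scaling and 0 to 11 with single libraries left out; Rpl34 turned to -0.38 with pseudogene counts added. The single interaction call between day 0 and day 4 was 0 with RLE, upper quartile or total count scaling, limma-voom, log2(TPM + 1), the replicate block or pseudogene counts added, 11 with DESeq2, and 0 to 1 with single libraries left out. The interaction between day 4 and day 8 gave 9 with DESeq2 and 0 with each library left out. In each case the cause was not tested. The replicate block kept all calls of the comparisons within days and along the knockout course. The members' median kept its sign at day 0 (0.10 to 0.27), day 4 (-0.23 to -0.08) and day 8 (0.38 to 0.64) under every alternative fitted.

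Wild type has 1 library a day, so its own spread was not measured, and leaving it out ends the comparison of that day. Every member had 788 or more counts in every library; the part of depth in the results was not tested.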

Other observations

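Some genes of the translation machinery that are no members changed along the knockout course between day 0 and day 4, when 9.56% of all genes rose and 5.16% fell. Rps3a1, a small-subunit protein outside the name rule, rose (log2 difference 0.99, adjusted p = 0.00590 in edgeR's test), while Fau fell (-0.52, adjusted p = 0.0458). Of 19 translation factors and related genes, 1 rose and 1 fell: Larp1, which binds TOP mRNAs, rose (0.57, adjusted p = 0.0374), and Btf3 fell (-0.59, adjusted p = 0.0342). Of the 10 paralogs, 2 changed: Rpl39l and Rps27rt fell (-1.55 and -1.34, adjusted p = 0.0296 and 0.00892). Of the 42 biogenesis genes, 2 changed: Rrp9 and Ubtf, an RNA polymerase I factor, fell (-1.07 and -0.66). Of the 78 mitochondrial ribosomal protein genes, 3 changed, a lower share of falls than over all genes: Mrpl14, Mrpl57 and Mrps31 fell (-1.56, -0.91 and -0.56), and of the 9 small nucleolar RNA hosts Snhg5 rose (1.08) and Eif4a2 fell (-0.66).

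Rpl22l1, the paralog of Rpl22, ran against its parent without passing the test. It was at 237 and 212 TPM in knockout and 512 TPM in wild type at day 8 (log2 difference -1.04, adjusted p = 0.0893), where Rpl22 was at 384 and 392 TPM in knockout and 302 TPM in wild type (0.46, adjusted p = 0.133). Rpl22l1 was chosen after its values were seen.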
